A study of Mus musculus with 6 samples.

Results

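The genes described here are *Atf4* and 9 genes of the amino acid stress response that it controls, *Atf3*, *Ddit3*, *Asns*, *Trib3*, *Chac1*, *Sesn2*, *Psat1*, *Phgdh* and *Slc7a11*. They were chosen by symbol, and all 10 were present among the 23420 gene symbols counted in each library. RNA-seq was performed on E14 mouse embryonic stem cells (ESCs) of 2 genotypes, WT and Patz1 -/- (KO), with 3 libraries each. All cells were kept in LIF together with inhibitors of MEK and GSK3, so the controls carried the same inhibitors. The KO was made in E14TG2a cells with CRISPR/Cas9 and single clones were isolated. Which clone gave the libraries is not given in the sources used here, so a difference of a clone and an effect of PATZ1 cannot be told apart. The libraries are described as biological replicates.

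ATF4 is a transcription factor of the bZIP class. When the initiation factor eIF2α is phosphorylated, by the kinase GCN2 upon amino acid shortage or by PERK upon stress in the endoplasmic reticulum, general translation falls and the *Atf4* mRNA is translated more. ATF4 then pairs with C/EBP proteins and raises genes that make, import or save amino acids, and, under lasting stress, genes that lead to cell death. Because this control acts largely on translation, the level of *Atf4* RNA does not measure the protein, and the RNA of its targets is the usual readout of the response in cultured cells.

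Dimers of ATF4 with C/EBP proteins are known to bind a composite DNA element. Its motif TGATGNAAN, searched on both strands in windows of 300 bases from 250 bases before to 50 after the start site (RefSeq, GRCm38.p6), was found in 5 of the 10 genes. It was present in 4.50% of the 27025 genes with a window in the table. The matches, which describe sequence and not binding, are shown in the direction of the gene, with the bases of the match in capitals, for these 5 genes and for *Pck2* and *Nupr1*, the pathway genes that passed the test of genotype. The *Slc7a11* stretch holds the motif once on each strand.
Asns, chr6:7693214-7693242, minus strand: cccagccacaTGATGAAACttcccgcacg
Chac1, chr2:119351038-119351066, plus strand: cttccctgccGTTGCATCActcctgccag
Slc7a11, chr3:50443652-50443680, minus strand: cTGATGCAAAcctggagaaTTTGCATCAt
Atf3, chr1:191183426-191183454, minus strand: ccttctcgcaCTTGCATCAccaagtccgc
Trib3, chr2:152344029-152344057, minus strand: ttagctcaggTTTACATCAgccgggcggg
Pck2, chr14:55540152-55540180, plus strand: agccttcaaaGTTACATCAgtatcttaca
Nupr1, chr7:126625563-126625591, minus strand: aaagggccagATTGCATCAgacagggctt
In *Asns* the match began 23 bases before the start site, and in *Trib3* it began 13 bases after the start site of RefSeq. The windows of *Atf4*, *Ddit3*, *Sesn2*, *Psat1* and *Phgdh* held no match, which says only that these letters are not in those 300 bases. Of the 54 other ATF4 pathway genes studied, 40 had a window and 12 of these held the motif, 5 of them among 8 tRNA synthetases and tRNA export genes. The palindromic cAMP response element TGACGTCA was in 0 of the 10 genes and in 2.03% of all.

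The libraries differed in depth and in ribosomal RNA by replicate number more than by genotype. Totals ran from 37573923 to 47721070 counts in the libraries numbered 1 and 2, while those numbered 3 had 11040756 (WT) and 11420268 (KO). *Rn45s*, the ribosomal precursor, took 14.4% and 12.5% of the counts of replicate 3 and at most 3.03% elsewhere. *Lars2*, the gene of a mitochondrial tRNA synthetase, was counted with *Rn45s* as a check of ribosomal RNA. It took 5.31% and 4.56% of replicate 3 and at most 0.162% elsewhere. A value of 3 counts, used as the floor of detection, stood for 1.69 to 2.12 normalized counts in replicates 1 and 2 and for 7.93 and 8.21 in replicate 3, counting error only. Normalized counts here are raw counts over the library's size factor. *Patz1* RNA itself was at 0.454 of the WT level in KO (log2 ratio -1.14 with a standard error of 0.10, adjusted p 1.58e-26 by DESeq2). As a limit, 605 of its exon bases overlap *Gm12592* on the opposite strand and 88 overlap *Gm11944*, and the use of strand in counting is not given. By western blot, the paper reports loss of the PATZ1 protein in its KO lines. The ESC markers *Pou5f1*, *Sox2*, *Nanog*, *Zfp42*, *Esrrb*, *Klf4* and *Tfcp2l1* together gave 116439 to 119957 normalized counts in WT and 124908 to 128546 in KO. Of these 7, 0 passed the test of genotype with DESeq2 (7.49% of all genes tested did), edgeR or limma-voom. At an unadjusted p under 0.05 there were 0 with each, where 13.9%, 17.7% and 18.8% of all genes were so. With the replicate number as a block, *Pou5f1* and *Zfp42* were called higher in KO, in a fit that called 14.6% of all genes (6.68% higher). The 7 fibroblast markers summed to 87.5 to 110 in WT and 134 to 169 in KO. The gene of that list that was called was *Thy1*, whose mean was 72.5 normalized counts in WT and 129.9 in KO (log2 ratio 0.83, standard error 0.25, adjusted p 0.0147 by DESeq2). *Col1a1* averaged 11.5 in WT and 9.16 in KO, and *Col1a2* 10.8 and 6.49 (log2 ratios -0.23 and -0.90, adjusted p 0.933 and 0.629). *Lum*, *Dcn* and *Postn* were at 0 in every KO library and averaged at most 1.29 in WT. *Col3a1* went the other way, with 0.19 in WT and 1.28 in KO, on at most 2 counts a library. The 6 endoderm markers summed to 80.1 to 115 in WT and 84.2 to 106 in KO, and the 5 neural markers to 4549 to 5404 and 4444 to 5611, most of it *Tubb3*. *Nes*, another of the neural markers, averaged 717 in WT and 496 in KO with no overlap (log2 ratio -0.54, adjusted p 0.0509, and 2.35e-04 with the block), while the log2 ratios of *Sox1*, *Pax6*, *Tubb3* and *Map2* were -0.28, 0.05, 0.09 and 0.63, with 0 of these 4 called in either fit. The part of these markers in the results below was not tested.

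Levels per kilobase of annotated exon were compared first, since counts grow with transcript length. In WT the order was *Asns*, *Atf4*, *Psat1*, *Phgdh*, *Sesn2*, *Trib3*, *Ddit3*, *Chac1*, *Atf3* and *Slc7a11*, from 9903 to 2.07 normalized counts per kilobase. *Asns*, asparagine synthetase, stood 3.95-fold above *Atf4*. *Psat1* and *Phgdh* overlapped between WT libraries and so were not separated by their spread, and neither were *Chac1* and *Atf3*. In KO these neighbours did not overlap, but *Ddit3* and *Chac1* did. All other neighbours were apart in both genotypes. The 13922 exon bases annotated for *Slc7a11* join all its transcripts, which lowers its value per kilobase.

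To ask whether the loss of PATZ1 was accompanied by an amino acid stress response, KO was compared with WT for each gene. None of the 10 genes passed the threshold (adjusted p under 0.05 over all genes, Wald test of DESeq2), that is 0 of 10, where 7.49% of the 15309 genes tested did. At an unadjusted p under 0.05 there were 3 of 10 with each of DESeq2, edgeR and limma-voom, where 13.9%, 17.7% and 18.8% of all genes were so, and 0 of 10 passed after adjustment with edgeR or limma-voom as well, all without the replicate number in the model. With the replicate number as a block, 2 of the 10 passed, *Psat1* and *Phgdh*, where 14.6% of all genes did. The median log2 ratio of KO to WT was 0.14 over the 10 genes and 0.01 over all genes tested. Only 1 of the 10 had WT and KO libraries apart from each other, with KO higher, against 25.6% of all genes tested (11.8% with KO higher and 13.8% with KO lower). In bulk libraries such as these, fewer cells of a type and less RNA per cell cannot be told apart.

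**Figure D1:**
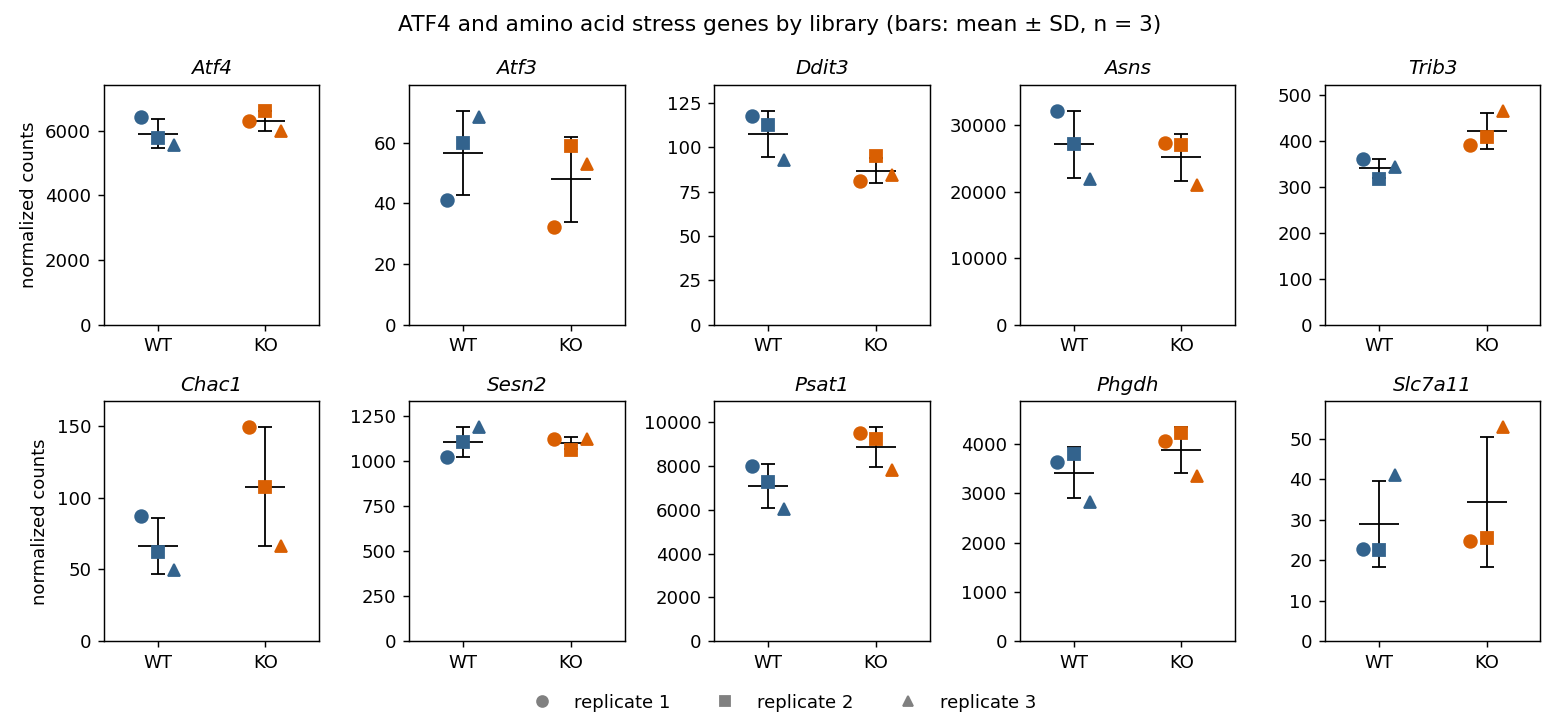
Normalized counts (y axis, linear and from 0) of the 10 genes in the 3 WT and 3 KO libraries, with the mean and SD of each genotype as bars and the replicate number as the symbol. *Trib3* was the only gene of the 10 whose KO libraries were all above its WT libraries, and replicate 3 was the lowest point in both genotypes for *Atf4*, *Asns*, *Chac1*, *Psat1* and *Phgdh*.

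*Atf4* (chromosome 15, 80255184 to 80257541, plus strand, GRCm38) had 6413, 5761 and 5564 normalized counts in the WT libraries, in order of replicate number, against 6306, 6620 and 5988 in those of KO. The ranges overlapped, and KO was higher in 2 of 3 pairs of equal number. The log2 ratio of KO to WT was 0.09 with a standard error (SE) of 0.10 (adjusted p 0.753 by DESeq2), and its 95% interval ran from -0.10 to 0.28. With 1 library left out it was 0.05 (without WT replicate 3) to 0.15 (without WT replicate 1), and it was not called in any of these fits.

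The stress transcription factors downstream of ATF4 had lower means in KO, without passing the threshold. *Ddit3* (chromosome 10, 127290774 to 127296288, plus strand), which encodes the death-promoting factor CHOP, had 118, 112 and 93.1 normalized counts in the WT libraries against 81.3, 94.9 and 84.6 in those of KO. All 3 pairs were lower in KO, but KO replicate 2 exceeded WT replicate 3. Its log2 ratio was -0.33 (SE 0.23, adjusted p 0.538). An overlap of 68 exon bases with *Mars* on the opposite strand makes the *Ddit3* count uncertain, since the use of strand in counting is not given. *Atf3* (chromosome 1, 191170296 to 191218039, minus strand), a repressor induced by many stresses, had 41.2, 60.0 and 68.5 in WT and 32.2, 58.7 and 52.9 in KO, on as few as 20 and 25 counts in replicate 3. Its log2 ratio was -0.22 (SE 0.35, adjusted p 0.863), and replicate 1 was its lowest library in each genotype.

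*Trib3* and *Chac1*, which respond strongly when ATF4 and CHOP are active, had higher means in KO without passing the threshold. *Trib3* (chromosome 2, 152337422 to 152344032, minus strand), a pseudokinase that restrains AKT and ATF4, had 359, 317 and 342 normalized counts in the WT libraries against 390, 407 and 465 in those of KO. The genotypes did not overlap, yet the log2 ratio of 0.29 (SE 0.14) had an adjusted p of 0.253. *Chac1* (chromosome 2, 119351229 to 119354381, plus strand), an enzyme that degrades glutathione, had 87.5, 62.1 and 49.3 in WT and 149, 107 and 66.1 in KO. Every pair was higher in KO, by 0.76, 0.78 and 0.42 on the log2 scale, but within a genotype the libraries spread as widely as the genotypes differed. Its log2 ratio of 0.70 (SE 0.31, adjusted p 0.189) had the widest departure from 0 among the 10 genes. Without KO replicate 3, which held 25 counts of the gene, it was 0.90 (adjusted p 0.0464), and without KO replicate 1 it was 0.39 (adjusted p 0.859). It missed the threshold in each fit but the first of these.

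For the serine enzymes the call depended on whether the replicate number was in the model. *Psat1* (chromosome 19, 15904678 to 15947337, minus strand), phosphoserine aminotransferase, had 7987, 7257 and 6018 normalized counts in the WT libraries against 9517, 9221 and 7809 in those of KO. KO was higher in each pair, by 0.25, 0.35 and 0.38 on the log2 scale, although KO replicate 3 fell below WT replicate 1. With genotype alone the log2 ratio was 0.32 (SE 0.12, adjusted p 0.0989). With the replicate number as a block it was 0.32 (SE 0.06, adjusted p 4.95e-07), past the threshold. It also passed without both replicate 3 libraries (0.30, adjusted p 0.00933) and without KO replicate 3 (0.40, adjusted p 0.0327). In each other fit that left out 1 library it missed the threshold. Its log2 ratio there ran from 0.21 (without WT replicate 3, adjusted p 0.277) to 0.41 (without WT replicate 1, adjusted p 0.0580).

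*Phgdh* (chromosome 3, 98313170 to 98339990, minus strand), phosphoglycerate dehydrogenase, catalyses the entry into serine synthesis from glycolysis. It had 3633, 3799 and 2831 normalized counts in the WT libraries against 4060, 4231 and 3361 in those of KO. Each pair was higher in KO, by 0.16, 0.16 and 0.25, and the genotypes overlapped through replicate 3. The log2 ratio was 0.18 (SE 0.13, adjusted p 0.562), and 0.18 (SE 0.06, adjusted p 0.0277) with the replicate block. Without WT replicate 3 it was 0.07 (adjusted p 0.868). The block fit called 14.6% of the genes it tested and 2 of the 10 described here, both higher in KO, where 6.68% of all genes were called higher and 7.95% lower. A gene above WT in each of the 3 pairs was also common in general (30.8% of 11524 genes with a mean of at least 50 normalized counts), and 4 of the 9 genes described here with such a mean were so (*Trib3*, *Chac1*, *Psat1* and *Phgdh*), as was *Slc7a11*, whose mean was lower. Another 3 of the 9, *Atf3*, *Ddit3* and *Asns*, were below WT in each pair, as were 26.1% of genes.

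*Asns* (chromosome 6, 7675169 to 7693254, minus strand), the classic target of the amino acid response, had a lower mean in KO. Its normalized counts were 32099, 27223 and 21932 in the WT libraries against 27378, 27005 and 21046 in those of KO, lower in KO in every pair. The log2 ratio was -0.11 (SE 0.14, adjusted p 0.824), and -0.10 (adjusted p 0.273) with the block. *Sesn2* (chromosome 4, 132492032 to 132510501, minus strand), a leucine sensor that restrains mTORC1 and is also a p53 target, had 1019, 1103 and 1186 in WT and 1119, 1062 and 1118 in KO. Its log2 ratio of 0.00 (SE 0.11, adjusted p 0.997) had a 95% interval from -0.21 to 0.22. *Slc7a11* (chromosome 3, 49892526 to 50443614, minus strand), the cystine importer shared by ATF4 and NRF2, was the lowest, with 22.9, 22.6 and 41.1 in WT and 24.8, 25.5 and 52.9 in KO. These rest on 15 to 44 counts a library, and the log2 ratio was 0.24 (SE 0.44, adjusted p 0.884).

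**Figure D2:**
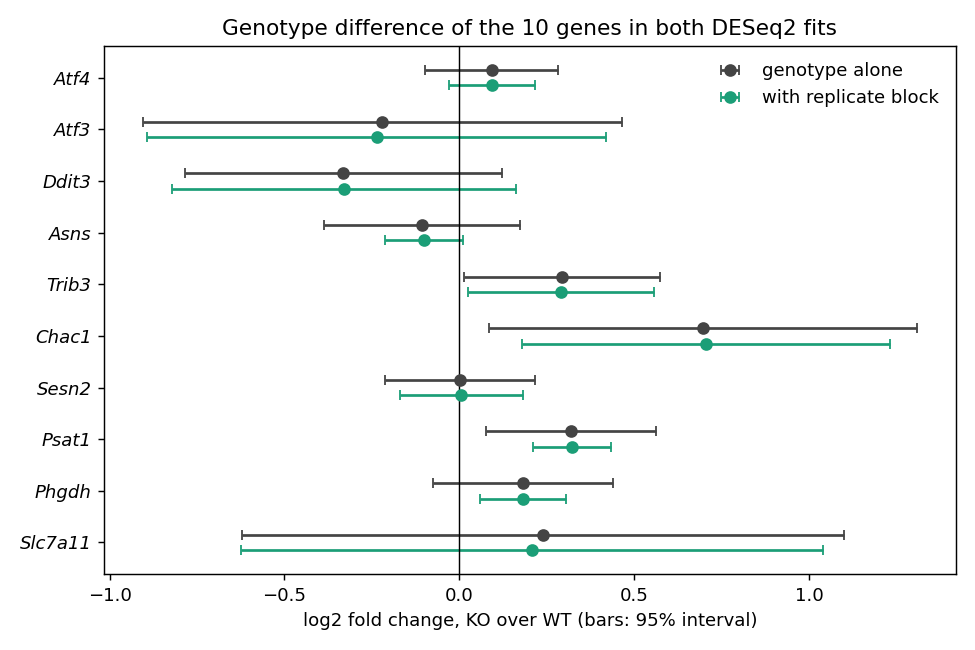
Log2 ratio of KO to WT (x axis) with 95% intervals for the 10 genes, from the DESeq2 fit of genotype alone (grey) and with the replicate block (green). The block left the estimates where they were and narrowed the intervals of *Atf4*, *Asns*, *Psat1* and *Phgdh* (SE of *Psat1* 0.12 and 0.06), while those of *Atf3*, *Ddit3* and *Slc7a11* stayed wide.

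The replicate number was then tested across both genotypes, to ask whether culture or library differences moved these genes. The likelihood ratio test of DESeq2, with genotype in both models, called 3 of the 9 genes that it could test, *Asns* (adjusted p 8.58e-09), *Psat1* (7.81e-05) and *Phgdh* (8.91e-05). It called 15.2% of the 11590 genes tested in all. *Slc7a11* was too low to be given an adjusted p. All 3 called genes were lowest in replicate 3 of both genotypes, as were *Atf4* and *Chac1*, a pattern held by 30.6% of genes with a mean of at least 50. *Asns*, *Chac1* and *Psat1* were also highest in replicate 1 of both genotypes (16.8% of genes), and *Atf3* was lowest there (11.8% of genes).

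A contrast of replicate 3 with the mean of replicates 1 and 2, chosen after the data were seen, gave the size of these differences. *Asns* was lower by a log2 difference of -0.40 (SE 0.06, adjusted p 4.05e-09 by DESeq2), *Phgdh* by -0.35 (SE 0.07, adjusted p 2.05e-05) and *Psat1* by -0.30 (SE 0.06, adjusted p 2.94e-05). For comparison, the log2 ratios of KO to WT were -0.11 for *Asns*, 0.18 for *Phgdh* and 0.32 for *Psat1*. *Chac1* had -0.78 (SE 0.33, adjusted p 0.0956). In the opposite direction, *Slc7a11* had 0.97 (SE 0.47, no adjusted p) and was highest in replicate 3 of both genotypes, as were 24.1% of genes with a mean of at least 50, which *Slc7a11* did not reach. *Atf4* differed by -0.12 (SE 0.07, adjusted p 0.251). The contrast called 16.4% of all genes, 9.46% lower and 6.96% higher in replicate 3, and 3 lower and 0 higher of the 9 genes tested here.

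Replicate 3 was also the shallow pair rich in *Rn45s* and *Lars2*, and the part of depth, ribosomal RNA or culture in these differences was not tested. Without WT replicate 3 none of the 3 genes passed the test of replicate number (adjusted p 0.0652 for *Asns*, 0.505 for *Psat1* and 0.521 for *Phgdh*). Without KO replicate 3 *Asns* passed (0.0107) and the other 2 did not (0.125 and 0.123). In both of these fits a single library stood for replicate 3, and the spread came from the other replicates. *Phgdh* also missed it without WT replicate 2 (0.0634) or KO replicate 2 (0.0545). With both replicate 3 libraries left out, replicates 1 and 2 gave 0 calls among the 10 genes, and 70 among the 14086 genes tested. At an unadjusted p under 0.05 there were 0 of the 10, where only 3.32% of all genes were so.

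**Figure D3:**
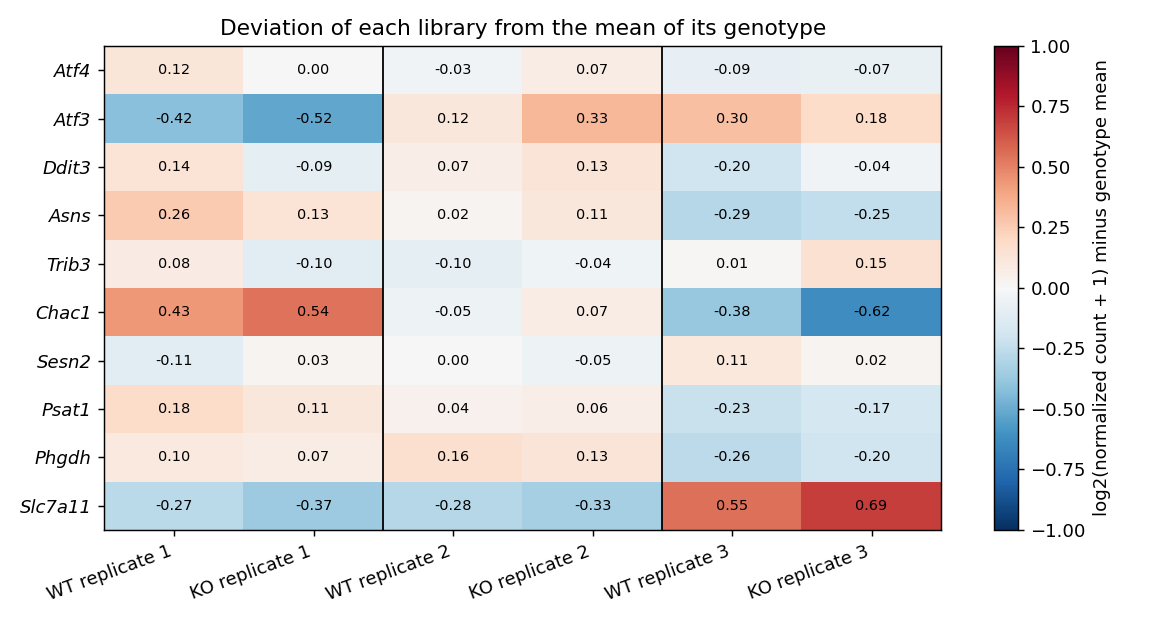
Deviation of each library from the mean of its genotype, in log2(normalized count + 1), for the 10 genes (rows) and the 6 libraries (columns, ordered by replicate number). *Asns*, *Chac1*, *Psat1* and *Phgdh* were below their genotype mean in both replicate 3 libraries (*Asns* by 0.29 and 0.25), and *Slc7a11* was above it there (0.55 and 0.69).

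Among the members, the likeness of the 6-library profiles was described with the Pearson correlation of log2(normalized count + 1), which the shared libraries and genotypes shape. It was highest for *Chac1* and *Psat1* (0.94) and for *Psat1* and *Phgdh* (0.90), and lowest for *Asns* and *Slc7a11* (-0.92). *Atf4* had 0.88 with *Psat1*, 0.83 with *Chac1* and 0.78 with *Phgdh*, but 0.00 with *Ddit3* and -0.78 with *Sesn2*, so the profiles of the targets differed among themselves. The genes most like *Atf4* among 11523 with a mean of at least 50 were *Gnl2* (0.99), *Snrpb2* (0.99), *Gnb1* (0.98), *Ckap2l* (0.98) and *Polr2d* (0.98). *Psat1*, the most alike among the 10 genes, ranked 309 in that order.

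The wider pathway was compared next, in 54 genes of 6 lists. Of the 53 with an adjusted p, 2 passed the threshold between genotypes, both higher in KO (2.70% of all genes tested were called higher and 4.78% lower). The median log2 ratio of the 53 genes was 0.11. edgeR and limma-voom each called 3, these 2 and *Jdp2* (named after its values were seen), a repressor of the bZIP class. *Nupr1*, a small chromatin protein induced by stress, had 360, 296 and 181 normalized counts in the WT libraries against 496, 640 and 412 in those of KO, with no overlap. It rose by 0.86 on the log2 scale (SE 0.22, adjusted p 0.00196 by DESeq2). *Pck2*, mitochondrial phosphoenolpyruvate carboxykinase, had 622, 520 and 498 in WT and 772, 731 and 764 in KO, again with no overlap. It rose by 0.45 (SE 0.13, adjusted p 0.00993).

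Both calls were lost in some of the fits that left out 1 library. *Nupr1* missed the threshold without KO replicate 2 (log2 ratio 0.68, adjusted p 0.105). *Pck2* missed it in 3 such fits, when WT replicate 2 (0.142), KO replicate 1 (0.132) and KO replicate 2 (0.0661) were removed in turn, with log2 ratios of 0.41, 0.44 and 0.48. Both genes carry the motif printed above, as do 10 other pathway genes, of which DESeq2 called 0 and edgeR and limma-voom called *Jdp2* with genotype alone. With the replicate block, 8 of 53 passed, 7 higher and 1 lower, a share near the 14.6% of all genes called in that fit (6.68% higher and 7.95% lower). Named after their values were seen, the others were *Impact*, an inhibitor of GCN2, *Mthfd1l* of the mitochondrial one-carbon pathway, the arginine transporter *Slc7a3* and the tRNA synthetases *Gars* and *Lars*, higher in KO, and *Shmt1*, lower. Their log2 ratios in the block fit were 0.28, 0.30, 0.18, 0.17, 0.18 and -0.26 in that order. *Shmt1* lies on chromosome 11, where 20.2% of 1260 genes tested were called lower in KO against 3.31% on the other 18 autosomes, and where the median log2 ratio was -0.27.

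By role, each pathway list gave 0 or 1 call between genotypes with DESeq2, which called 7.49% of all genes tested and gave 13.9% an unadjusted p under 0.05. Of the 8 eIF2α genes (kinases, phosphatase subunits, the kinase inhibitor *Impact* and *Eif2s1*) 0 passed, and 1 had an unadjusted p under 0.05. *Ppp1r15a*, the inducible phosphatase subunit GADD34, had a mean of 522 (SD 63.8) in WT and of 610.2 (SD 12.8) in KO. Its log2 ratio was 0.22 (SE 0.13, adjusted p 0.430 by DESeq2). Of the 6 bZIP partners 0 passed, and 1 did so unadjusted. *Jdp2* had 75.5, 68.5 and 73.9 normalized counts in the WT libraries against 106, 119 and 111.0 in those of KO, with no overlap (log2 ratio 0.63, SE 0.23, adjusted p 0.0763, or 0.0836 with the block). Of the 8 amino acid transporters and of the 13 tRNA synthetases and export genes 0 passed, with 0 unadjusted. In these lists and that of eIF2α, edgeR and limma-voom called 0 genes, with 1 unadjusted in each list by limma-voom. Among the latter, 12 had a positive and 1 a negative log2 ratio, with a median of 0.11. The list of serine, glycine, proline and one-carbon enzymes held 1 call in 10, the carboxykinase *Pck2*. At an unadjusted p under 0.05 DESeq2 gave 3 of these 10, *Pck2*, *Mthfd1l* (log2 ratio 0.30) and *Shmt1* (-0.27). The other stress effectors held 1 call in 8, which was *Nupr1*, also the only one of them unadjusted by DESeq2. Among those effectors, *Gdf15*, a secreted stress hormone, had a log2 ratio of 0.36 (SE 0.27, adjusted p 0.601), and *Ddit4*, an mTORC1 inhibitor, one of 0.14 (SE 0.17, adjusted p 0.805).

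**Figure D4:**
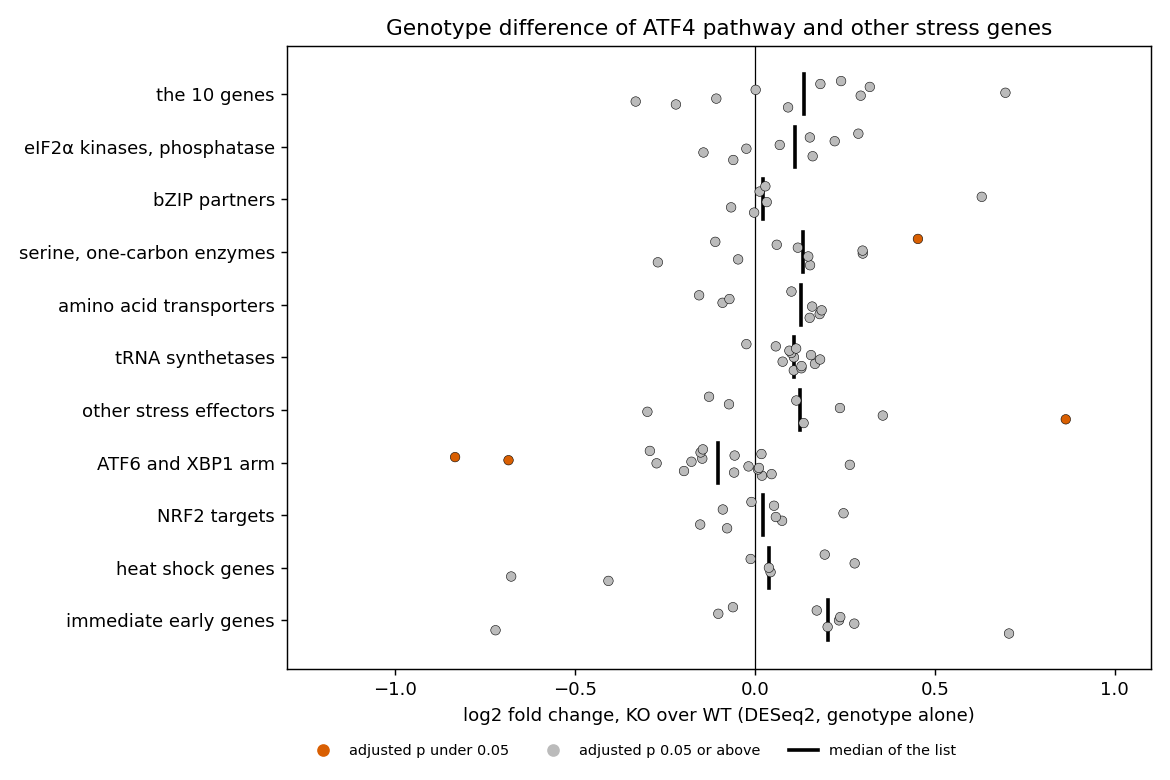
Log2 ratio of KO to WT (x axis, DESeq2 with genotype alone) for each gene with an adjusted p in the 10 genes, the 6 pathway lists and 4 other stress programmes, with the list median as a line and genes past the threshold in orange. *Nupr1* (0.86) and *Pck2* (0.45) were the only pathway genes past the threshold, and the calls in the ATF6 and XBP1 arm (*Ern1* -0.83, *Xbp1* -0.69) were both lower in KO.

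Other stress programmes were set beside these. Of 18 genes of the ATF6 and XBP1 arm of the unfolded protein response 2 passed, both lower in KO (7.49% of all genes tested passed, and 4.78% were lower). The replicate block called these and *Sel1l* on chromosome 12, also lower (-0.28, adjusted p 0.0181). Libraries did not overlap for 5 of the 18, all with KO lower, where 13.8% of all genes were so. *Xbp1*, the factor spliced by IRE1, had 1520, 1476 and 1024 normalized counts in the WT libraries against 861, 905 and 740 in those of KO (log2 ratio -0.69, SE 0.15, adjusted p 2.99e-04 by DESeq2). *Ern1*, which encodes IRE1 itself, had 174, 167 and 184 in WT and 106, 96.7 and 84.6 in KO (-0.83, SE 0.20, adjusted p 0.00124). *Xbp1* and *Ern1* lie on chromosome 11, with the lower median given above, and the part of that chromosome in their values was not tested. Among the chaperones of this arm, *Hspa5* and *Hsp90b1* had log2 ratios of 0.02 and 0.05 (adjusted p 0.955 and 0.882), and *Dnajc3* and *Hyou1*, whose libraries did not overlap, -0.29 and -0.15 (adjusted p 0.141 and 0.381). Of the NRF2 targets (8 genes), the heat shock genes (7) and the immediate early genes (9 tested), 0 passed with genotype alone, and edgeR and limma-voom also called 0. At an unadjusted p under 0.05 DESeq2 gave 1, 2 and 0 of them. The replicate block, which called 14.6% of all genes, called *Txnrd1* (0.24), *Hspb1* (0.28), *Hsp90aa1* (0.20) and *Ier2* (0.24) higher in KO and *Hspa1b* (-0.67) lower.

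By replicate number, 12 of 50 pathway genes tested passed the likelihood ratio test, beside the 15.2% of all genes. *Eif4ebp1*, an inhibitor of cap-dependent translation and ATF4 target, had the smallest adjusted p (1.99e-20, DESeq2). It had 8162, 8778 and 5613 normalized counts in the WT libraries against 8826, 9597 and 6004 in those of KO, so that both replicate 3 libraries were lowest, by a log2 difference of -0.60 (SE 0.06) from the other replicates. *Gars*, glycyl-tRNA synthetase, was lower in replicate 3 by -0.32 (SE 0.06), *Nupr1* by -0.63 (SE 0.18) and *Slc3a2*, the heavy chain of amino acid transporters, by -0.23 (SE 0.07). *Shmt1* and *Mthfd1l* were lower by -0.23 each, *Yars* by -0.22 and *Aars* by -0.18. *Tnfrsf10b*, a death receptor, was higher in replicate 3 by 0.49 (SE 0.14) and *Ppp1r15b*, the constitutive phosphatase subunit, by 0.23 (SE 0.07). *Cth* and *Slc7a3* passed the test of replicate number, with -0.16 (adjusted p 0.245) and 0.01 (adjusted p 0.974) in the contrast of replicate 3.

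Of 6 heat shock genes tested, 4 passed by replicate number (15.2% of all genes), and these 4 were lower in replicate 3. *Hspb1* differed by -0.49 (SE 0.06), *Hspa8* by -0.39 (SE 0.06), *Dnajb1* by -0.37 (SE 0.08) and *Hsph1* by -0.26 (SE 0.07) on the log2 scale. *Hsp90aa1* and *Hspa1b* did not pass the test of replicate number (adjusted p 0.915 and 0.456), with -0.02 and -0.19 in the contrast of replicate 3. *Sdf2l1*, *Xbp1* and *Creld2* of the unfolded protein response were lower by -0.56, -0.41 and -0.37, as was *Ier2* by -0.24 among the immediate early genes, while *Nqo1* of the NRF2 targets was higher by 0.28. Between replicates 1 and 2, with both replicate 3 libraries left out, 0 of the 54 pathway genes passed by DESeq2, and 6 had an unadjusted p under 0.05, as did 3.32% of all genes in that fit.

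**Figure D5:**
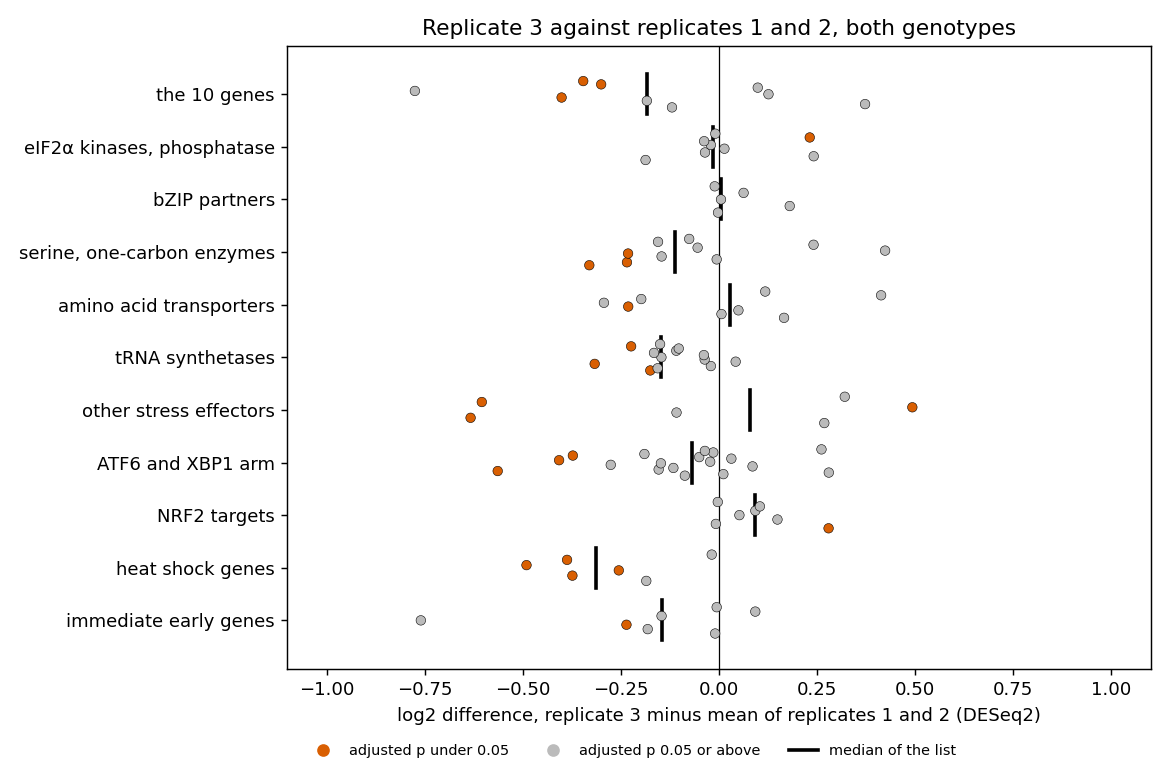
Log2 difference of replicate 3 from the mean of replicates 1 and 2 (x axis, DESeq2 with genotype in the model) for each gene with an adjusted p, by list, with the list median as a line and genes past the threshold in orange. The medians of the 10 genes (-0.18), the tRNA synthetases (-0.15) and the heat shock genes (-0.31) were below 0, those of the amino acid transporters (0.03), other stress effectors (0.08) and NRF2 targets (0.09) above it, and that of all genes tested was -0.02.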

How the data were processed

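RNA depleted of ribosomal RNA was made into stranded libraries. The authors mapped reads to mm10 with Bowtie 2 and deposited raw counts per gene symbol. Per the labels, the submitters' processing notes also name TopHat2 (2.1.1) and featureCounts (1.6.2), with no role stated. Annotation, strand setting and treatment of duplicate reads are not given in the sources used here.

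Counts were tested with DESeq2 1.42.0 (genotype alone, median-of-ratios size factors, default independent filtering, no shrinkage, two-sided Wald test), the test and threshold of the study, with Benjamini-Hochberg adjustment over all genes. Replicate number was tested by a likelihood ratio test. Alternatives were edgeR 4.0.16, limma-voom (limma 3.58.1), TMM, a filter of at least 10 counts in 3 libraries, no independent filtering, the replicate block, and leaving out each library or both replicate 3 libraries. Positions and exon lengths came from GENCODE M21 (GRCm38, the build of mm10), matched for 23034 symbols.

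Members and lists were chosen with earlier results of these data known. Named genes were the 10 members, at most 4 called genes per list and fit, and the 5 genes most like *Atf4*. Any other gene named was chosen after its values were seen. Scripts were tested on simulated data.

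Replicate numbers in the titles paired the libraries. Over 11524 genes, the same-numbered WT and KO libraries deviated together from the means of their genotypes, with correlations of 0.469, 0.619 and 0.684, against at most 0.138 between other numbers. The deviations of a genotype cancel out across its libraries, so the shift of replicate 3 also enters the correlations of replicates 1 and 2. Every 2 libraries differed by more than sampling noise (a chi-square of at least 9.50 for each degree of freedom), so none was counted as deposited again. P-values of the fits with genotype alone measure the spread between libraries within a genotype. Those of the fits that hold the replicate number measure the spread left once it is accounted for. Whether either spread covers several KO clones is not given in the sources used here.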

Additional observations from a re-analysis of the deposited data

How the results depend on the processing

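With edgeR, limma-voom, TMM size factors, the count filter and no independent filtering, the 10 genes gave 0 calls between genotypes, as with DESeq2. The replicate block gave 2131 genes called in all, 2 of the 10 and 8 pathway genes (1146, 0 and 2 without it), and it ended none of the genotype calls of DESeq2 named above (*Jdp2*, called by edgeR and limma-voom, had an adjusted p of 0.0836 under it). Leaving out both replicate 3 libraries gave 1332 of 15193 genes tested, 1 of the 10 and 4 pathway genes. Across the fits that each left out 1 library, calls were 583 of 15198 genes tested (without KO replicate 1) to 1341 of 15243 (without WT replicate 3). Of the 10 genes they were 0 to 2, with 2 without KO replicate 3, where 1016 of 15632 genes were called. Of the pathway genes they were 0 (without KO replicate 2) to 3. Calls also fell to 605, 664 and 590 genes without WT replicate 1, WT replicate 2 and KO replicate 2. By replicate number, edgeR called 3458 of 19404 genes and 5 of the 10 (*Atf3* and *Chac1* in addition). DESeq2 called 1760 of 11590 genes and 3 of the 9 it could test. Leaving out 1 library gave 268 (without WT replicate 3) to 1358 genes (without KO replicate 1), 0 to 3 of the 10 and 1 to 9 of the pathway, and every library but KO replicate 1 moved the count of genes by over 1.5 times. Leaving out both replicate 3 libraries gave 70, 0 and 0. The cause was not tested, beyond the smaller number of libraries.

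Of 130 values of the 10 genes under the alternatives, 117 kept direction and side of the threshold, 5 newly passed and 8 changed sign. The last were all uncalled. *Sesn2* had -0.0001 with the count filter. Without 1 library, log2 fold changes ran from -0.0555 to 0.0475 for *Sesn2*, -0.240 to 0.0314 for *Asns*, -0.453 to 0.0362 for *Atf3* and -0.0964 to 0.484 for *Slc7a11*. *Atf3*, *Chac1* and *Slc7a11* rest on 15 to 25 counts in replicate 3, which limits their precision there.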

Other observations

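The close relatives of the genes described gave 0 calls among 5 between genotypes with DESeq2, edgeR or limma-voom, with 2 at an unadjusted p under 0.05 by each (13.9%, 17.7% and 18.8% of all genes). *Trib1*, a pseudokinase related to *Trib3*, averaged 176 (SD 19.6) in WT and 128 (SD 23.3) in KO, in normalized counts over 3 libraries a genotype. Its libraries did not overlap, and its log2 ratio of KO to WT was -0.48 (adjusted p 0.155 by DESeq2), while that of *Trib3* was 0.29. *Chac2*, a relative of *Chac1*, averaged 187 (SD 41.8) and 183 (SD 30.2). *Sesn1*, a relative of *Sesn2*, averaged 445 (SD 56.0) and 344 (SD 62.7). The log2 ratio of *Sesn1* was -0.37, with an adjusted p of 0.199, or 0.0358 with the replicate block. The remaining relatives, *Trib2* and *Sesn3*, had higher means in KO, with log2 ratios of 0.40 and 0.26 (adjusted p 0.637 and 0.578 by DESeq2).

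*Foxa2*, an endoderm factor, was at 0 counts in the 3 WT libraries and at 12.4, 4.15 and 5.29 normalized counts in those of KO, on 22, 7 and 2 counts. The value of KO replicate 3 lies below the 7.93 that 3 counts stand for in that library. The other 5 endoderm markers had log2 ratios below 0 (*Gata4* -0.17, *Gata6* -0.12, *Sox17* -0.83, *Sox7* -0.01 and *Afp* -0.62), with 0 called. The limit that 0 counts allow was 1.72, 2.12 and 8.21 normalized counts in WT replicates 1 to 3. DESeq2 gave it no adjusted p, and edgeR and limma-voom called it.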
